A study of Mus musculus with 17 samples.

Results

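The 6 genes described here were drawn from 55357 genes in the deposited tables: the glucose-sensing transcription factors *Mlxipl* (which encodes ChREBP) and *Mlxip* (MondoA), their common partner *Mlx*, and their target genes *Txnip*, *Arrdc4* and *Pklr*. They were chosen by symbol, and all 6 passed the filter on low counts. The 10 annotated transcripts of *Mlxipl*, of 142376 transcripts in the tables, were also followed singly, and 9 of them passed the filter. RNA was sequenced from β cells of male mice on a C57BL/6 background in 17 samples. The control cells, called WT in the labels, came from mice that carried RIP-Cre (Cre recombinase driven by the rat insulin promoter) and a Cre-inducible Rosa26 tdTomato reporter. The knockout cells (*Pcbp2* βKO) carried RIP-Cre and the same reporter together with *Pcbp2* fl/fl, so that the RNA-binding protein PCBP2 was deleted in cells with Cre activity. Isolated islets recovered in culture, were kept for 3 days with glucose at 2.8 or at 16.7 mM, were dispersed, and tdTomato+ DAPI- cells were sorted. There were 3 control samples at 2.8 mM, 4 control samples at 16.7 mM, and 5 knockout samples at each concentration. The sources used here do not say whether samples of a group came from separate mice, so p-values measure the spread between these samples.

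ChREBP and MondoA are basic helix-loop-helix leucine zipper proteins that bind DNA as dimers with MLX. Sugar phosphates made from glucose relieve the inhibition of these proteins, and the dimers then bind carbohydrate response elements, which are paired E-box-like sequences, near genes of glycolysis and lipid synthesis. In β cells *Txnip*, which encodes an α-arrestin that binds thioredoxin and limits glucose uptake, is a well-known target, as is its relative *Arrdc4*. *Pklr*, the liver-type pyruvate kinase, is one of the genes in which the response element was worked out. *Mlxipl* itself has a main start and an upstream alternative start, whose shorter product, ChREBPβ, is known as a glucose-induced form.

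Paired E-box-like patterns and the single E-box CACGTG were looked for in the RefSeq promoter windows of the members (250 bases before to 50 bases after a start site, build GRCm38.p6). There were 8 windows for the 6 genes. Each window matched GRCm39, the build of the files, exactly once, and positions below are on GRCm39. The matches found are shown because they lie near start sites of the genes whose levels follow. Those of *Txnip* and *Pklr* are paired, and those of *Arrdc4*, *Mlx* and *Mlxipl* are single E-boxes. Capitals mark the match, including the 5 bases between both parts of a response element.

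Txnip: actgtgCACGAGGGCTGCACGAGcctcca
Pklr: ggacgcCACGGGGCACTCCCGTGgttcct
Arrdc4: cctgtgCACGTGcactat
Mlx: ttggatCACGTGactgag
Mlxipl: gccatcCACGTGctaagg

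The *Txnip* sequence (chr3:96465182-96465210, plus strand) held 2 copies of CACGNG with 5 bases between them, starting at position -85 from the start site, upstream of the gene. This arrangement, searched on both strands, was in 0.0488% of 32817 promoter windows. The *Pklr* sequence (chr3:89043754-89043782, plus strand) matched the degenerate element, CANGNG and CNCNTG with 5 bases between them, at position -170 from the downstream of its 2 RefSeq start sites and therefore downstream of the other. That element was in 0.558% of windows. The E-box CACGTG, which was in 7.15% of windows, occurred at position -193 of *Arrdc4* (chr7:68399168-68399185, minus strand), at position -40 of *Mlx* (chr11:100978070-100978087, plus strand) and at position -98 of the upstream start of *Mlxipl* (chr5:135118640-135118657, plus strand). The *Arrdc4* and *Mlxipl* sites lie upstream of the annotated genes, the *Pklr* site lies inside its gene, and the *Mlx* site overlaps the first annotated base of *Mlx* at 100978080. None of the 3 patterns was in the window of the main *Mlxipl* start, in that of *Mlxip* or in the other *Pklr* window. No binding was measured, so these matches describe letters only.

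Libraries held 47385513 to 82419400 estimated counts. Levels are CPM, that is counts relative to TMM-adjusted library sizes, or TPM (abundance per transcript length, with the same total in every sample) where genes are compared with each other. *Pcbp2* itself stood at 50.7 to 73.4 CPM in the control samples and 15.5 to 19.2 CPM in the knockout samples at 2.8 mM, and at 35.0 to 45.4 CPM and 5.81 to 10.02 CPM at 16.7 mM, without overlap at either concentration. *Ins1* and *Ins2* together held 19.7% to 35.1% of TPM at 2.8 mM and 56.9% to 62.5% at 16.7 mM. TMM factors ran from 1.10 to 1.29 at 2.8 mM and from 0.75 to 0.86 in most samples at 16.7 mM, but were 1.01, 0.94 and 0.95 in 3 samples at 16.7 mM that stood apart (control replicate 4 and knockout replicates 4 and 5). This set was picked from these data. Knockout replicate 5 at 2.8 mM also differed from its group and is not in the set. *Ins2* held 10.4% of its counts and 4.92% to 6.80% in the rest of its group. Of the markers of other islet cells, the α cell list (*Gcg*, *Irx2*, *Ttr*) summed to 678 to 2601 CPM in control and 1549 to 9403 CPM in knockout samples at 2.8 mM, and to 530 to 1557 CPM and 950 to 1788 CPM at 16.7 mM, while the defining factor *Irx2* reached at most 1.27 CPM. Within that list the median of *Gcg* went from 1368 to 321 CPM with glucose in control and from 5307 to 425 CPM in knockout samples, and that of *Ttr* from 53.4 to 498 CPM and from 115 to 778 CPM. The δ cell list (*Sst*, *Hhex*, *Rbp4*) summed to 251 to 390 CPM in control and 480 to 1316 CPM in knockout samples at 2.8 mM, and *Ppy*, the pancreatic polypeptide gene, had 797 to 835 CPM and 992 to 5112 CPM there, both without overlap. Taken singly, *Sst* and *Hhex* overlapped there and *Rbp4* did not (114 to 172 and 180 to 371 CPM). At 16.7 mM the δ sums (147 to 335 and 198 to 565 CPM) and *Ppy* (224 to 631 and 290 to 1142 CPM) overlapped. The 6 proliferation markers (such as *Mki67* and *Top2a*) summed to 8.18 to 62.2 CPM in control and 2.19 to 271 CPM in knockout samples at 16.7 mM, with medians of 24.4 and 130 CPM. The part of other cell types and of proliferation in the results below was not tested, and in these bulk samples fewer cells of a type and less RNA per cell cannot be told apart.

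**Figure D1:**
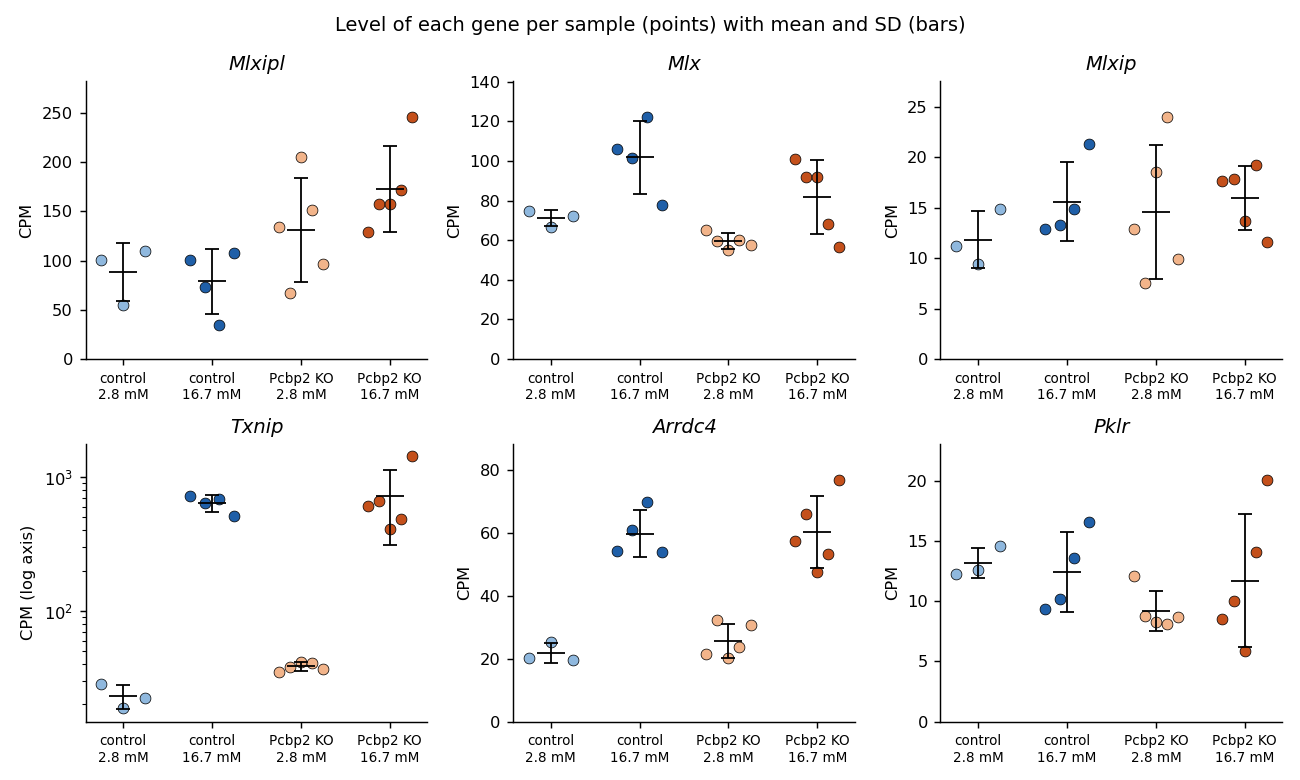
CPM of the 6 genes (vertical axes; log axis for *Txnip*) in the 4 groups, with 1 point per sample in order of replicate number and bars for the mean and SD. *Txnip* and *Arrdc4* at 16.7 mM lie above every sample at 2.8 mM, and knockout replicate 5 at 16.7 mM has the highest *Txnip* value, 1426 CPM.

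The first question was how the members responded to glucose in control cells. *Txnip* and *Arrdc4* rose, and the transcription factors and *Pklr* did not pass the test. A gene was called where edgeR gave it an adjusted p under 0.05 together with more than 1.5-fold change. By this rule 2 of the 6 members were called, both higher, where 13.8% of 22784 genes tested were called (1629 higher and 1524 lower). The median difference on the log2 scale was 0.46 over the members and 0.04 over all genes.

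*Txnip* stood at 28.5, 18.96 and 22.5 CPM in the 3 control samples at 2.8 mM and at 723, 645, 685 and 508 CPM in the 4 at 16.7 mM. The lowest sample at 16.7 mM, replicate 4, was one of the 3 that stood apart, and the groups were far from overlapping. The log2 fold change was 4.78 (SE 0.37), a 27.4-fold difference, with an adjusted p of 3.9e-06 in edgeR's quasi-likelihood test. Among the genes tested, *Txnip* ranked 1 by p and 88 by fold change. The call was kept under each setting run and with each sample left out.

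*Arrdc4*, the α-arrestin most closely related to *Txnip*, stood at 20.3, 25.4 and 19.6 CPM at 2.8 mM and at 54.3, 60.8, 69.8 and 54.1 CPM at 16.7 mM in control cells. Again no sample of one group reached the other. It rose by 1.46 on the log2 scale (SE 0.20, adjusted p = 0.00037), with a 95% interval of 1.05 to 1.87, which lay below that of *Txnip* (4.00 to 5.56). On the TPM scale, which gives each sample the same total over all transcripts, the *Arrdc4* difference was smaller and was not called (0.29 on log2(TPM + 1), adjusted p = 0.27, limma), beside a median over all genes of -0.24.

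*Mlx*, the obligate partner, stood at 74.7, 66.8 and 72.5 CPM at 2.8 mM and at 106, 101, 122 and 77.8 CPM at 16.7 mM. The groups did not overlap, although replicate 4 at 16.7 mM was close to the highest sample at 2.8 mM. The difference of 0.51 on the log2 scale (SE 0.18) had an adjusted p of 0.060 and was not called. With the replicate number as a block, *Mlx* was called (0.62, adjusted p = 0.012), and so it was without control replicate 4 at 16.7 mM (0.64, adjusted p = 0.015). That these numbers pair the samples was not shown. On log2(TPM + 1) its sign was the opposite (-0.30, adjusted p = 0.14), so that a direction for *Mlx* depended on the scale.

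*Mlxipl* stood at 100, 54.9 and 109 CPM at 2.8 mM and at 100, 73.0, 34.3 and 108 CPM at 16.7 mM in control cells. The ranges overlapped almost wholly, with the lowest sample at 16.7 mM. The estimate was -0.16 on the log2 scale, with a 95% interval from -0.94 to 0.61 and an adjusted p of 0.83.

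*Mlxip*, the MondoA gene, had 11.2, 9.42 and 14.9 CPM at 2.8 mM and 12.9, 13.3, 14.9 and 21.3 CPM at 16.7 mM, with a log2 fold change of 0.40 (SE 0.32, adjusted p = 0.45). *Pklr* had 12.3, 12.6 and 14.6 CPM at 2.8 mM and 9.39, 10.2, 13.6 and 16.6 CPM at 16.7 mM, with a log2 fold change of -0.08 (SE 0.31, adjusted p = 0.90). Both pairs of groups overlapped. Counted over the members, 3 of 6 had groups that did not overlap (*Mlx*, *Txnip* and *Arrdc4*), where 24.1% of all genes tested did not overlap.

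The same question in *Pcbp2* βKO cells gave the same 2 calls. *Txnip* and *Arrdc4* were called higher of the 6 members, where 23.8% of genes tested were called (3056 higher and 2375 lower), and they were also the 2 members whose groups did not overlap, where 21.6% of genes did not. Over the members the median on the log2 scale was 0.43, and over all genes it was 0.01.

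In the knockout samples *Txnip* stood at 35.0, 37.9, 41.7, 41.1 and 36.7 CPM at 2.8 mM and at 606, 664, 406, 485 and 1426 CPM at 16.7 mM. The samples at 2.8 mM were close together, while replicate 5 at 16.7 mM was far above the other 4. The log2 fold change was 4.22 (SE 0.29, adjusted p = 1.9e-07), an 18.6-fold difference. It was 3.81 without replicate 5, and the call was kept there as under every other setting.

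*Arrdc4* stood at 21.7, 32.4, 20.3, 23.7 and 30.7 CPM at 2.8 mM and at 57.6, 65.9, 47.7, 53.4 and 76.8 CPM at 16.7 mM in knockout cells. Replicate 5 was again the highest. The difference was 1.23 on the log2 scale (SE 0.16, adjusted p = 2.6e-05), but on log2(TPM + 1) it was -0.20 (adjusted p = 0.31), where the median of all genes was -0.33. *Arrdc4* therefore lay above the median of all genes on both scales, by 1.22 and 0.13, while on the TPM scale it did not pass the test in either direction. The margin on the TPM scale depended on the pseudocount. It was 0.50 on log2(TPM + 0.1), where the median of all genes was -0.71.

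*Mlx* stood at 65.4, 59.6, 54.8, 60.4 and 57.6 CPM at 2.8 mM and at 101, 91.9, 91.7, 68.4 and 56.4 CPM at 16.7 mM in knockout cells. Replicates 4 and 5, from the samples that stood apart, were the low ones. It differed by 0.46 on the log2 scale (SE 0.15, adjusted p = 0.025), under the 1.5-fold limit for a call. Without the 3 samples that stood apart it was called (0.63, adjusted p = 0.00019), and on log2(TPM + 1) it was called in the other direction (-0.66, adjusted p = 0.00034). The median of all genes was -0.33 on that scale. On log2(TPM + 0.1) *Mlx* (-0.68) lay close to the median of all genes (-0.71).

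*Mlxipl* had 134, 67.1, 205.2, 152 and 96.0 CPM at 2.8 mM and 129, 158, 157, 172 and 245 CPM at 16.7 mM in knockout cells, with a log2 fold change of 0.40 (SE 0.31, adjusted p = 0.37). *Mlxip* had 12.9, 7.52, 18.6, 23.97 and 9.95 CPM at 2.8 mM and 17.6, 17.8, 13.7, 19.2 and 11.6 CPM at 16.7 mM, a difference of 0.13 (SE 0.26, adjusted p = 0.75). *Pklr* had 12.1, 8.73, 8.31, 8.08 and 8.68 CPM at 2.8 mM and 8.55, 10.04, 5.85, 14.1 and 20.1 CPM at 16.7 mM, a difference of 0.35 (SE 0.26, adjusted p = 0.34). In all 3 genes the groups overlapped. Of *Pklr*, the 2 highest samples at 16.7 mM were replicates 4 and 5, and without the samples that stood apart its difference was -0.21.

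**Figure D2:**
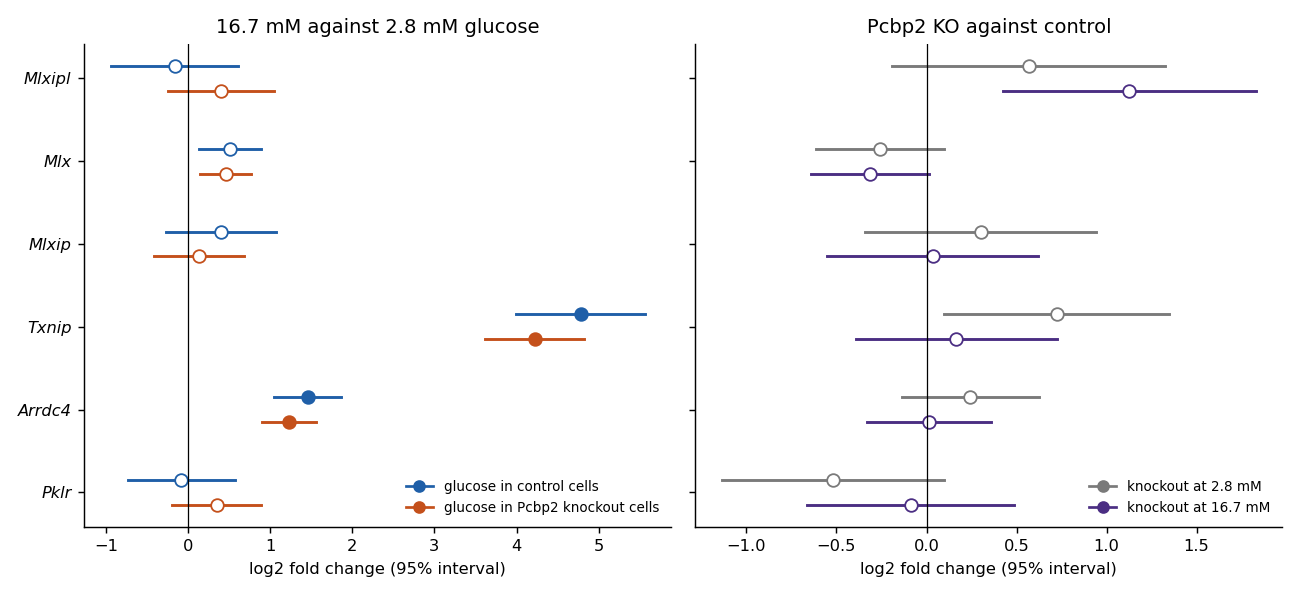
Log2 fold changes (points) with 95% intervals (lines) of the 6 genes, for glucose in each genotype on the left and for the knockout at each glucose concentration on the right; filled points were called. Only *Txnip* and *Arrdc4* are filled, both for glucose, at 4.78 and 1.46 in control cells and 4.22 and 1.23 in knockout cells.

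The next question was whether loss of PCBP2 changed the members at either glucose concentration. No member was called at 2.8 mM, where 2.04% of genes were called, nor at 16.7 mM, where 1.71% were. At an unadjusted p below 0.05 there was 1 member at each concentration, *Txnip* at 2.8 mM and *Mlxipl* at 16.7 mM. DESeq2 called 0 members at 2.8 mM and 1 (*Mlxipl*) at 16.7 mM, and limma on log2(TPM + 1) called 0 at both. Of 22784 genes, DESeq2 called 835 and 721 at these concentrations, and limma 283 and 190.

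At 16.7 mM the 4 control samples had 100, 73.0, 34.3 and 108 CPM of *Mlxipl* and the 5 knockout samples had 129, 158, 157, 172 and 245 CPM. Every knockout sample was above every control sample, and *Mlxipl* was the 1 member of 6 with no overlap, where 4.49% of genes did not overlap. The log2 fold change was 1.13 (SE 0.33, 95% interval 0.43 to 1.83), a 2.18-fold difference, with an adjusted p of 0.12 in the edgeR fit across all genes. It was called by DESeq2 (1.11, adjusted p = 0.030) and in edgeR without the filter on low counts (1.13, adjusted p = 0.029). Those fits made more calls over all genes, 721 of 22784 and 535 of 44935, where the main fit called 389 of 22784. The *Mlxipl* difference was 0.97 (adjusted p = 0.22) without knockout replicate 5. With each of the 9 samples left out in turn it ran from 0.88 to 1.30 in edgeR (adjusted p from 0.062 to 0.33).

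At 2.8 mM the difference in *Mlxipl* was 0.57 (SE 0.36, adjusted p = 0.56), with groups that overlapped. The 2 comparisons share no samples, and their difference, the interaction of genotype and glucose, was 0.56 (SE 0.48, 95% interval -0.45 to 1.57), so that a difference between the concentrations was not shown.

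*Txnip* at 2.8 mM had 28.5, 18.96 and 22.5 CPM in control cells and 35.0, 37.9, 41.7, 41.1 and 36.7 CPM in knockout cells. All 5 knockout samples were above all 3 control samples. The log2 fold change was 0.72 (SE 0.30, 95% interval 0.10 to 1.35), a 1.65-fold difference, with an adjusted p of 0.29. It was called when only the 2 groups compared were fitted (0.71, adjusted p = 0.041) and when the 3 samples that stood apart at 16.7 mM were left out of the fit (0.73, adjusted p = 0.022). Over all genes those fits called 488 of 21134 and 671 of 22352, where the main fit called 464 of 22784. *Mlx* and *Pklr* also did not overlap at 2.8 mM, both lower in the knockout, at -0.26 (SE 0.17, adjusted p = 0.58) and -0.52 (SE 0.29, adjusted p = 0.50), which made 3 of 6 members where 10.9% of genes did not overlap.

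At 16.7 mM the *Txnip* difference between genotypes was 0.16 (SE 0.27, adjusted p = 0.88), and it was -0.24 without knockout replicate 5. *Arrdc4* differed by 0.01 (95% interval -0.33 to 0.36), the narrowest of the members' intervals but that of *Mlx*, which differed by -0.32 (95% interval -0.64 to 0.01). No member was called in the interaction of genotype and glucose, where 0.00439% of genes were called, none had an unadjusted p below 0.05, and DESeq2 and limma on log2(TPM + 1) called none. The interaction of *Txnip* was -0.56 (95% interval -1.39 to 0.27) and that of *Arrdc4* -0.23 (95% interval -0.74 to 0.28).

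Knockout replicate 5 at 16.7 mM had the highest value of all 17 samples for 4 members, with 1426 CPM of *Txnip*, 76.8 CPM of *Arrdc4*, 245 CPM of *Mlxipl* and 20.1 CPM of *Pklr*. For *Mlx* it had the lowest value of the 9 samples at 16.7 mM, 56.4 CPM, and for *Mlxip* it also had the lowest of these 9, 11.6 CPM.

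**Figure D3:**
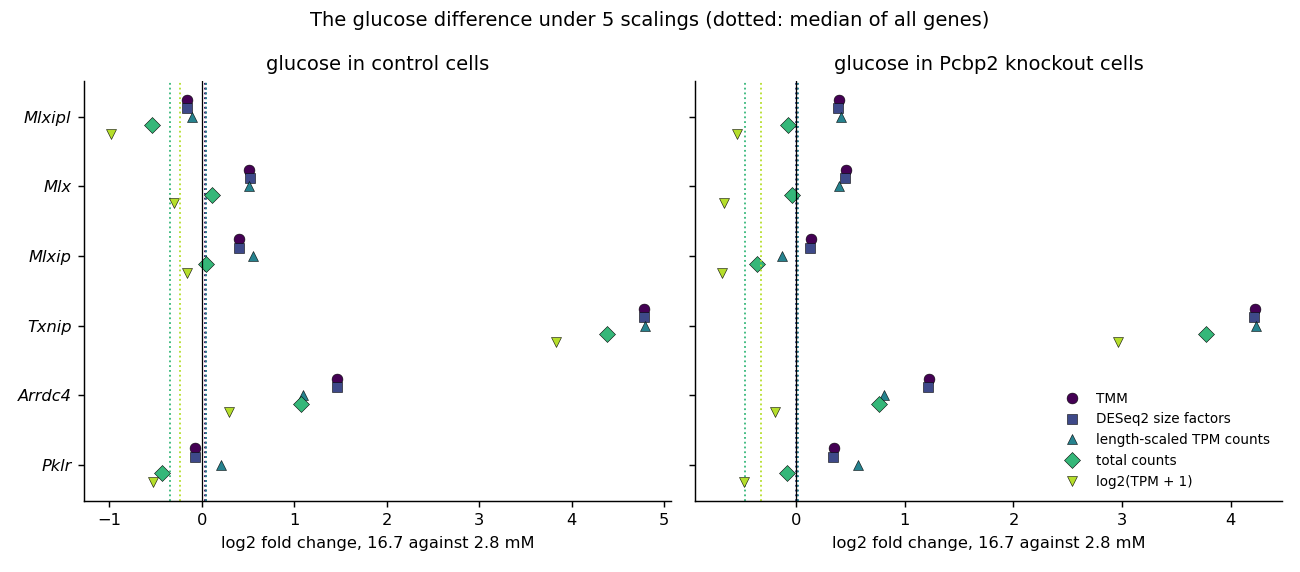
Log2 fold change of each gene for 16.7 against 2.8 mM glucose (horizontal axes) in control and knockout cells under 5 scalings (symbols), with the median of all genes under each scaling as a dotted line. *Txnip* stays between 2.96 and 4.79, whereas *Arrdc4* runs from 1.46 down to 0.29 in control cells and from 1.23 to -0.20 in knockout cells.

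Compared per length, the order of the members changed with glucose. In control cells at 2.8 mM *Mlx* was highest (56.8 TPM ± 7.54, SD, n = 3), followed by *Mlxipl* (41.9), *Arrdc4* (9.79), *Txnip* (8.30), *Pklr* (7.36) and *Mlxip* (1.92). The ranges of *Mlx* and *Mlxipl* overlapped, as did those of *Arrdc4* and *Txnip* and those of *Txnip* and *Pklr*. In control cells at 16.7 mM *Txnip* was highest (130 TPM ± 12.01, SD, n = 4), above *Mlx* (45.8), *Mlxipl* (22.5), *Arrdc4* (11.97), *Pklr* (5.06) and *Mlxip* (1.72), and *Mlxipl* and *Arrdc4* were the only neighbours whose ranges overlapped. In knockout cells *Mlxipl* was above *Mlx* at both concentrations (70.5 and 50.9 TPM at 2.8 mM, 44.9 and 32.1 TPM at 16.7 mM), with overlapping ranges. *Txnip* came next after these in knockout cells at 2.8 mM (15.2 TPM) and was above them at 16.7 mM (139 TPM). Each value sums all transcripts of a gene, and for *Mlxipl* the largest share was annotated as noncoding (Mlxipl-205, below). The full-length coding transcript, Mlxipl-201, alone had means of 5.14 and 2.74 TPM in control cells at 2.8 and 16.7 mM. In knockout cells it had 9.62 and 5.34 TPM. The order therefore does not rank coding messages.

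Likeness of pattern was measured as the root mean square difference between z-scored log2 CPM over the 17 samples, among 9774 genes with a mean log2 CPM of at least log2(5). Of these, *Txnip* was the gene most like *Arrdc4* (0.28 SD), followed by *Pde1c* (0.32) and *Gprin3* (0.36). *Arrdc4* was 6th in the list for *Txnip*, whose nearest genes were *Rspo4* (0.15), *Fos* (0.26) and *Magee1* (0.26). The genes most like *Mlxipl* were *Nbeal2* (0.33), *Tha1* (0.39) and *Mapk15* (0.50), those most like *Mlx* were *Slc31a1*, *Slc30a7* and *Cldn23* (0.23 to 0.26), those most like *Mlxip* were *Irak1*, *Rps6ka2* and *Ankib1* (0.42 to 0.49) and those most like *Pklr* were *Cdc14b*, *Calcoco1* and *Arel1* (0.51 to 0.63). *Mlxipl* differed from the other members by 1.07 SD (*Mlxip*) to 1.69 SD (*Mlx*). These values describe samples that share 2 glucose levels, and carry no test.

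*Mlxipl* lies on chromosome 5 (GRCm39, chr5:135118744-135168615, plus strand). By the GENCODE annotation, 7 of its 10 transcripts use the main first exon, which ends at 135136069, 2 start inside the gene near its 3′ end, and 1, Mlxipl-210, starts at 135118744, 17011 bases upstream of the start of the full-length coding transcript Mlxipl-201. Reads that isoforms share were divided among them by Kallisto's model, so transcript values are less certain than gene values. By TPM the largest share of the gene, on average in each group and in 14 of 17 samples, was held by Mlxipl-205, an annotated retained-intron transcript of 1822 bases that keeps intron 4 of Mlxipl-201 and has no annotated coding sequence. Its mean share was 43.0% (SD 11.96, n = 3) and 28.2% (SD 9.01, n = 4) in control cells at 2.8 and 16.7 mM, and 45.4% (SD 7.86, n = 5) and 29.9% (SD 7.02, n = 5) in knockout cells. Mlxipl-209, annotated as protein coding, held mean shares of 17.6% to 24.2% in the 4 groups and exceeded Mlxipl-205 in the other 3 samples, control replicates 1 (32.0% against 20.01%) and 2 (29.7% against 22.1%) and knockout replicate 5 (30.2% against 21.0%) at 16.7 mM. Mlxipl-209 has only 683 bases, which raises its share by TPM. By estimated counts it held 1.20% to 8.33% of the gene per sample, below Mlxipl-205 in every sample. Mlxipl-201 held mean shares of 12.2% to 13.9% by TPM.

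In knockout cells the share of Mlxipl-205 was 46.7, 48.5, 55.8, 40.7 and 35.1% at 2.8 mM and 25.7, 30.9, 32.6, 39.5 and 21.0% at 16.7 mM. These ranges overlapped through 1 sample of each group. The mean difference was -15.4 percentage points (two-sided exact permutation p = 0.016, adjusted p = 0.19 over the 24 comparisons of shares). Mlxipl-207, annotated as a target of nonsense-mediated decay, held 4.35, 6.17, 5.62, 5.44 and 4.20% at 2.8 mM and 9.54, 10.7, 7.73, 10.5 and 12.9% at 16.7 mM in knockout cells, without overlap. Its difference was 5.12 percentage points (exact permutation p = 0.0079, the smallest that 5 against 5 samples can give, adjusted p = 0.19). No difference in share passed the adjustment, in glucose or genotype. With these group sizes no single comparison could pass over 24 on its own, however complete its separation. The outcome therefore does not show that shares were equal.

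**Figure D4:**
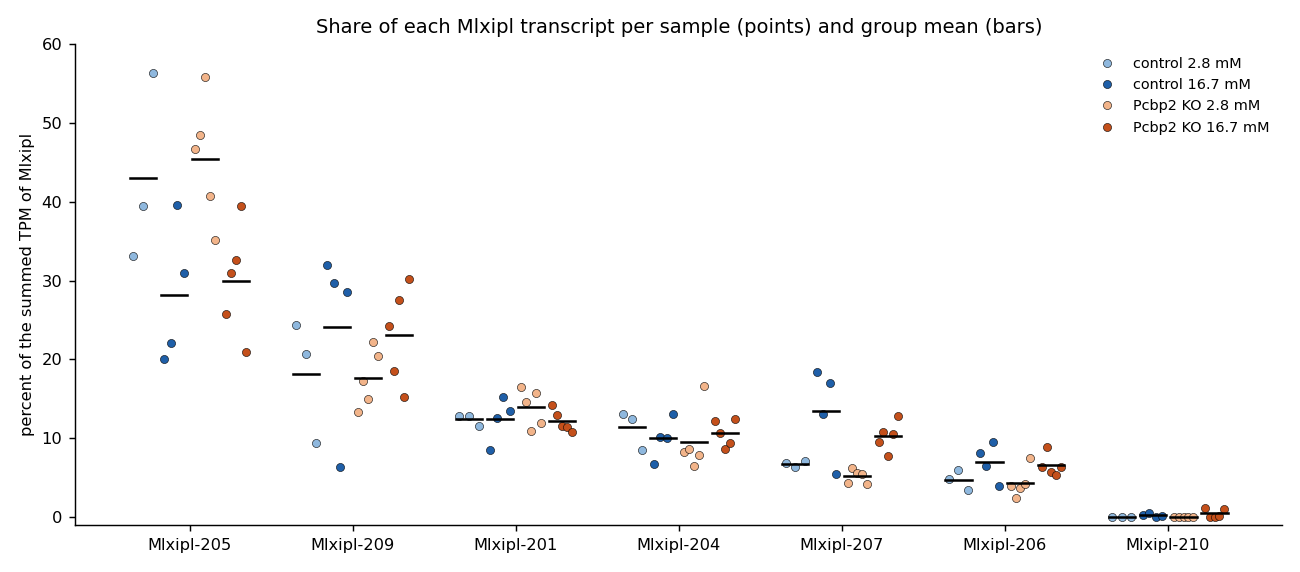
Share of the summed TPM of *Mlxipl* (vertical axis, percent) held by the 6 transcripts with a mean share of at least 5% and by Mlxipl-210, with 1 point per sample and a bar for each group mean. Mlxipl-205 has group means of 43.0% and 45.4% at 2.8 mM and 28.2% and 29.9% at 16.7 mM, and Mlxipl-210 lies at or near 0.

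Tested one by one in edgeR, 1 of 9 *Mlxipl* transcripts was called, Mlxipl-207, higher at 16.7 mM in knockout cells, where 13.8% of 65504 transcripts tested were called. It had 8.98, 6.68, 18.0, 13.2 and 6.18 CPM at 2.8 mM and 19.99, 25.3, 20.3, 27.7 and 51.2 CPM at 16.7 mM. The groups did not overlap, and replicate 5 at 16.7 mM was highest. The log2 fold change was 1.44 (SE 0.40, adjusted p = 0.023). The call was lost without that replicate (1.14, adjusted p = 0.066) and without knockout replicate 1, 2 or 5 at 2.8 mM (1.39, 1.32 and 1.30). It was also lost on the total count scale (0.96, adjusted p = 0.12) and on log2(TPM + 1) (0.33, adjusted p = 0.41), where Mlxipl-205 was called lower instead (-1.11, adjusted p = 0.035).

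In the other 4 contrasts no *Mlxipl* transcript was called in edgeR. The background was 4.68% of transcripts for glucose in control cells, 0.504% for the knockout at 2.8 mM, 0.392% for the knockout at 16.7 mM and 0.00153% for the interaction. At an unadjusted p below 0.05 there were 0, 0, 5 and 0 transcripts in these contrasts, DESeq2 called 0 in each, and limma on log2(TPM + 1) called 1 for glucose in control cells (Mlxipl-205, lower) and 0 in the other 3. At 16.7 mM the estimates of all 9 lay above 0, with a median of 1.21 on the log2 scale beside 0.01 over all transcripts tested. These transcripts share exons and reads, and their gene differed by 1.13 in the same samples. Their common sign therefore adds nothing separate to the gene's difference. Mlxipl-201 differed by 1.13 (SE 0.34, adjusted p = 0.27) and Mlxipl-205 by 1.27 (SE 0.41, adjusted p = 0.33).

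Mlxipl-210, the 412-base transcript at the upstream start, annotated as noncoding here, did not pass the filter. It had estimated counts of 0 in all 3 control samples at 2.8 mM, which together allow up to 3 counts of 227584681 (0.0132 CPM before scaling). In control cells at 16.7 mM it had 1.17, 2.24, 0 and 1.18 estimated counts. In knockout cells it had 1.17 in 1 of 5 samples at 2.8 mM, and 7.73, 0, 0, 2.32 and 20.8 at 16.7 mM. Summed over genotypes this came to 35.4 estimated counts in 6 of 9 samples at 16.7 mM and 1.17 in 1 of 8 samples at 2.8 mM. The sample with the most counts was again knockout replicate 5, and at such counts differences between groups were not tested. Limits from a count of 0 cover counting error only.

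The other genes of the pathway were read from lists. Of 22 genes reported as carbohydrate-response targets, 21 were tested. In control cells 9 were called higher and 0 lower at 16.7 mM, and 12 did not pass, where 13.8% of all genes were called, and the median was 0.70 on the log2 scale. The split depended on the scale. On log2(TPM + 1), where the median over all genes was itself -0.24, 4 were called higher (*G6pc2*, *Rgs16*, *Scd2* and *Thrsp*) and 6 lower (*Bhlhe40*, *Bhlhe41*, *Fgf21*, *Khk*, *Mid1ip1* and *Tkt*), with a list median of -0.054. Of all 22784 genes, 250 were called higher and 6725 lower on that scale. Scaling by library totals without TMM gave 6 higher and 3 lower calls, beside 782 and 4055 over all genes. Those with the largest and smallest called estimates were *Scd1*, a fatty acid desaturase (4.96, SE 1.13, adjusted p = 0.0073), and *Gpd1*, glycerol-3-phosphate dehydrogenase (0.70, adjusted p = 0.043). The *Gpd1* call was lost without control replicate 1 or 2 at 2.8 mM (0.72 and 0.46) or replicate 1, 2 or 3 at 16.7 mM (0.64, 0.77 and 0.56), and on log2(TPM + 1) its sign was the opposite (-0.033). *Scd1* was scarce, with 0.01 to 0.12 CPM at 2.8 mM and 0.64 to 3.26 CPM at 16.7 mM, and on log2(TPM + 1) it was below the fold limit in both genotypes (0.26 and 0.19). *Thrsp* (3.79), *Rgs16* (3.04), *G6pc2* (2.13) and *Klf10* (1.31) were also called, with adjusted p from 0.00011 to 0.011. These encode a regulator of lipid synthesis, a regulator of G protein signalling, the islet glucose-6-phosphatase subunit and a zinc finger transcription factor. *Klf10* was not called on log2(TPM + 1) in either genotype (0.51 and 0.14).

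In knockout cells 12 of the 21 targets were called higher and 2 lower, *Fgf21* (-1.52, adjusted p = 0.0031) and *Bhlhe40* (-0.81, adjusted p = 0.0072), with a median of 1.09, where 23.8% of all genes were called. On log2(TPM + 1) the split turned to 3 higher (*G6pc2*, *Rgs16* and *Thrsp*) and 8 lower (*Acaca*, *Bhlhe40*, *Bhlhe41*, *Fgf21*, *Khk*, *Me1*, *Mid1ip1* and *Tkt*), with a list median of -0.065 beside -0.33 over all genes, and scaling by library totals gave 10 and 5. Over all genes the higher and lower calls on these 2 scales were 345 and 8486, and 1482 and 6369. By TMM *Thrsp* had the largest estimate (3.38, adjusted p = 0.00022). It was scarce, with 0.17 to 0.42 CPM at 2.8 mM and 0.71 to 5.56 CPM at 16.7 mM. In control cells it had 0.32 to 0.36 and 0.94 to 6.19 CPM. *Scd1* (3.10), *Rgs16* (2.79), *G6pc2* (3.20), *Klf10* (1.28) and *Gpd1* (1.51) were called again, *Gpd1* not on log2(TPM + 1) (0.42, adjusted p = 0.082). Between genotypes at 2.8 mM, *Rgs16* was called higher in the knockout (1.22, adjusted p = 0.035) and *G6pc2* (-1.78, adjusted p = 0.014), *Gpd1* (-1.05, adjusted p = 0.0095) and *Elovl6*, a fatty acid elongase (-0.75, adjusted p = 0.0071), lower. Each call was lost on leaving out some single sample at 2.8 mM. For *G6pc2* and *Gpd1* this was control replicate 3 (-1.52 and -0.78), for *Elovl6* control replicate 2 (-0.59), and for *Rgs16* any of the 8 samples but knockout replicate 5 (1.09 to 1.32, adjusted p from 0.051 to 0.19). DESeq2 called 4 of the targets at 2.8 mM. Of all 22784 genes, edgeR called 464 there, DESeq2 835 and limma on log2(TPM + 1) 283. On log2(TPM + 1) limma called 2, *G6pc2* and *Scd2*, and not *Rgs16* (1.05, adjusted p = 0.11), *Gpd1* (-0.74, adjusted p = 0.13) or *Elovl6* (-0.51, adjusted p = 0.18). At 16.7 mM edgeR called 0 of the 21 between genotypes (3 at an unadjusted p below 0.05), DESeq2 called 1 and limma on log2(TPM + 1) called 0. Of all 22784 genes they called 389, 721 and 190.

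Of 12 other factors of the Max and Mlx network and the Usf factors, *Mxd4*, which encodes a repressor that dimerizes with MAX, was called higher with glucose in control (0.89, adjusted p = 0.0043) and knockout cells (1.00, adjusted p = 9.8e-05), but not on log2(TPM + 1) (0.08 and -0.028). *Myc* was called lower in both (-1.72 and -2.16, adjusted p = 0.029 and 0.0012), as was the E-box factor *Usf2* (-0.89 and -0.93, adjusted p = 0.023 and 0.0029). In control cells the *Myc* call was lost without any of the 7 samples but replicate 3 at 2.8 mM and replicate 4 at 16.7 mM (-1.72 to -1.52), and the *Usf2* call without replicate 1 or 2 at 2.8 mM or replicate 2 or 3 at 16.7 mM (-0.83 to -0.79). *Mxd3* was called higher in knockout cells (3.66, adjusted p = 0.0033). It was scarce there, with 0.06 to 0.38 CPM at 2.8 mM and 0.24 to 5.60 CPM at 16.7 mM, and the groups overlapped. In all, 1 was called higher and 2 lower in control cells and 2 and 2 in knockout cells. Of all genes, 13.8% and 23.8% were called. On log2(TPM + 1) the counts for the list were 0 and 6, and 1 and 7, beside 250 and 6725, and 345 and 8486, of 22784 genes. The list medians by TMM were -0.47 and -0.19. Between genotypes edgeR called none of the 12 at either concentration, none had an unadjusted p below 0.05, and DESeq2 and limma on log2(TPM + 1) called 0.

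Of 8 tested genes among the other α-arrestins and the thioredoxin system, *Txn1*, the thioredoxin that TXNIP binds, was called higher with glucose in both genotypes by TMM (0.75 and 0.72, adjusted p = 0.0096 and 0.0012), although on log2(TPM + 1) its sign was the opposite (-0.083 and -0.30). *Txnrd3*, a thioredoxin reductase, was called lower with glucose in knockout cells (-1.18, adjusted p = 0.036), a call lost without any of replicates 1, 3 and 4 at 2.8 mM and 1, 2 and 3 at 16.7 mM (-1.13 to -0.98). Mitochondrial *Txnrd2* was called lower in the knockout at 16.7 mM (-0.65, adjusted p = 0.019), and this call was lost without control replicate 3 (-0.49, adjusted p = 0.11) or knockout replicate 2 or 3 (-0.64 and -0.65) at 16.7 mM. The arrestins *Arrdc1*, *Arrdc2* and *Arrdc3* had glucose differences of -0.03 to 0.22 in the 2 genotypes by TMM, none of them called. By TMM 1 of the 8 was called higher and 0 lower in control cells, and 1 and 1 in knockout cells. Of all genes, 13.8% and 23.8% were called. With limma on log2(TPM + 1), 0 of the 8 genes were called higher with glucose in either genotype, and 3 were called lower in control cells and 6 in knockout cells, *Arrdc1* and *Arrdc3* among the latter. Of all 22784 genes, limma called 250 higher and 6725 lower in control cells on that scale, and 345 and 8486 in knockout cells.

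Of 10 genes of glucose sensing and of regulation of the members, 2 were called higher and 1 lower with glucose in control cells, and 3 and 1 in knockout cells. Of all genes, 13.8% and 23.8% were called. On log2(TPM + 1) the counts for the 10 were 0 and 4, and 0 and 5, beside 250 and 6725, and 345 and 8486, of 22784 genes. *Pkm*, the other pyruvate kinase gene, rose by TMM (0.64 and 0.87, adjusted p = 0.030 and 0.00052) and had the opposite sign on log2(TPM + 1) in both genotypes (-0.17 and -0.16). In control cells its call was lost without replicate 2 or 3 at 2.8 mM or replicate 1 at 16.7 mM (0.49, 0.61 and 0.43). *Slc2a2*, the main glucose transporter of mouse β cells, was called in knockout cells (2.09, adjusted p = 0.00034), and *Slc2a1*, a transporter that TXNIP is known to remove from the membrane, was called lower in both (-1.004 and -0.96, adjusted p = 0.046 and 0.014). In control cells the *Slc2a1* call was lost without any sample but replicate 3 at 2.8 mM and replicate 1 at 16.7 mM (-1.09 to -0.74). On log2(TPM + 1) *Slc2a2* in knockout cells was 0.85 and was not called (adjusted p = 0.11). Between genotypes edgeR called 0 of the 10 at 2.8 and at 16.7 mM (3 and 2 at an unadjusted p below 0.05), and DESeq2 and limma on log2(TPM + 1) also called 0.

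**Figure D5:**
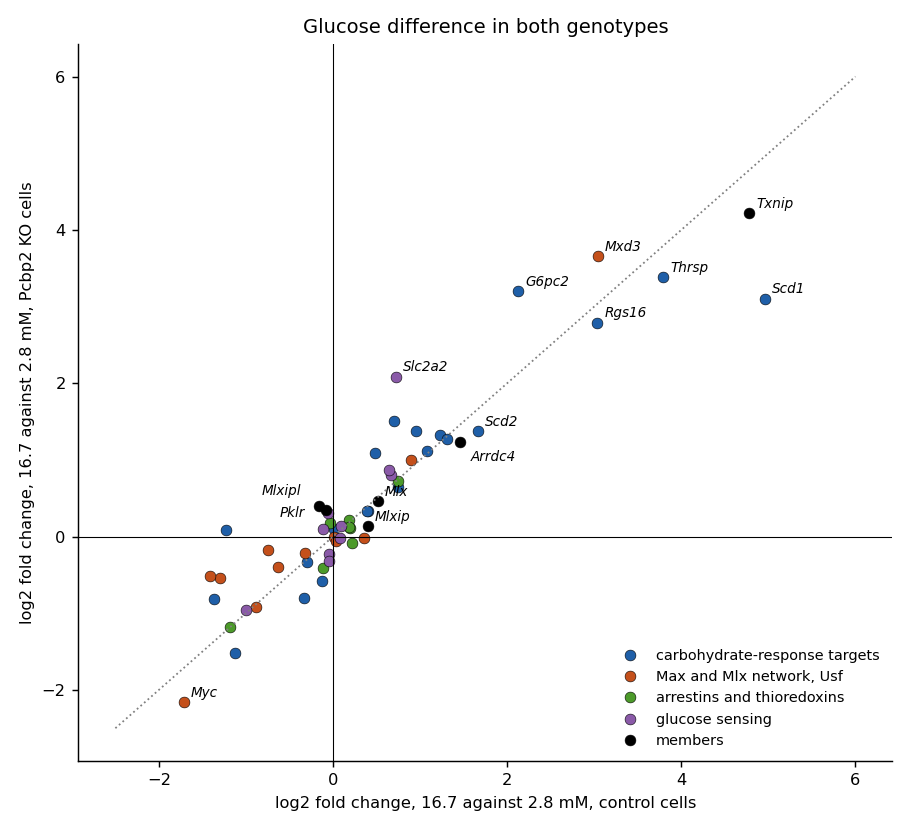
Log2 fold change for 16.7 against 2.8 mM glucose in control cells (horizontal axis) and in *Pcbp2* KO cells (vertical axis) for the members and the 4 lists (colours), with 1 point per gene and a dotted line of equal change. *Txnip* (4.78 and 4.22) lies near the targets *Scd1* and *Thrsp*, and *Myc* (-1.72 and -2.16) is lowest in both.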

How the data were processed

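The authors aligned reads to the GRCm39 reference transcriptome with Kallisto (processing notes: kallisto, edgeR, mm39; versions not given in the sources used here). They deposited, per sample and transcript, estimated counts, not normalized between samples, and TPM, scaled to transcript length and a fixed total. Estimated counts were summed per gene and rounded. The 4 group means were fitted with edgeR 4.0.16 in R 4.3.3 (filterByExpr, TMM, quasi-likelihood test, Benjamini-Hochberg over all genes or transcripts), and called means adjusted p below 0.05 and fold above 1.5. The authors' batch term could not be used, since its levels are not in the labels. Alternatives were DESeq2 1.42.0, limma 3.58.1 on log2(TPM + 1) or log2(TPM + 0.1), other scalings, length-scaled TPM, no filter, a replicate block and samples left out. A fold change on log2(TPM + pseudocount) understates that of low genes. Deviations of same-numbered control samples from their group means had correlations of 0.20, 0.12 and 0.26 between glucose levels, all above 0.1. Differently numbered samples were not compared, and the labels do not give the meaning of replicate numbers. These values therefore do not show that the numbers pair samples. Shares of *Mlxipl* were compared by two-sided exact permutation tests. Members and lists were chosen with earlier results of these data known. Of each list, the called genes with the largest and smallest estimates and those with a known link to a member were named, and 3 listed genes are not reported here. Of the transcript IDs, 141102 of 142376 were in GENCODE vM39, 104782 with the same version; Mlxipl-201 differs in version. No 2 samples were duplicates. The fits were tested on simulated data. Counts at an unadjusted p below 0.05 are given without the share of all genes or transcripts, which was not taken at that limit.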

Additional observations from a re-analysis of the deposited data

Results flagged for a closer look

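Among 36 checks of single samples against their groups of 4 or 5, 4 values, in 3 samples, lay apart by Dixon's 95% critical value for the group's size, where chance flags about 1 in 20. *Txnip* in knockout replicate 5 at 16.7 mM was highest at 1426 CPM, with a gap of 0.747 of the group's range to its neighbour. Mlxipl-204, an annotated target of nonsense-mediated decay, was highest in the same sample at 8.38 TPM (0.797 of the range). Mlxipl-205 was highest in control replicate 4 at 16.7 mM at 12.3 TPM (0.845 of the range). Both samples were among the 3 that stood apart at 16.7 mM. *Pklr* was highest in knockout replicate 1 at 2.8 mM at 12.1 CPM (0.837 of the range), where the other 4 samples had 8.08 to 8.73 CPM.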

How the results depend on the processing

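Alternatives with changed counts of members called were these. With limma on log2(TPM + 1) and on log2(TPM + 0.1), 1 member (*Txnip*) was called for glucose in control cells in place of 2, and in knockout cells the 2 called were *Txnip* and, lower, *Mlx*. With the replicate block and without the 3 samples apart at 16.7 mM, 3 were called in control cells (*Mlx* added, 0.60 with adjusted p = 0.0015 in the latter), and without those samples 3 in knockout cells (again *Mlx*). Over all genes these fits called 5024 of 22784 and 4898 of 22352 in control cells, where the main fit called 3153. Without those samples 6390 were called in knockout cells, where the main fit called 5431. Neither of these fits gave weight to control replicate 4 in the control contrast. At 2.8 mM, 1 member (*Txnip*) was called between genotypes with only the groups compared, with the replicate block (0.73, adjusted p = 0.040) and without the 3 samples apart at 16.7 mM. Over all genes these fits called 488 of 21134, 725 of 22784 and 671 of 22352, where the main fit called 464. At 16.7 mM, 1 member (*Mlxipl*) was called with no filter on low counts, with DESeq2 and with the replicate block (1.07, adjusted p = 0.033). Over all genes these fits called 535 of 44935, 721 of 22784 and 848 of 22784, where the main fit called 389. Both block calls between genotypes rest on samples that share only a number. Knockout samples without a same-numbered control sample carried no weight in them. Of *Mlxipl* transcripts for glucose in control cells, limma on log2(TPM + 1) called 1. In knockout cells DESeq2 called 3 (Mlxipl-206, Mlxipl-207 and Mlxipl-208), a fit of only the groups compared called 2, and total counts alone, the replicate block and the fit without the 3 samples apart called 0. Leaving out 1 sample at a time gave 2 to 3 members called for glucose in control cells, 2 in knockout cells and 0 in the other contrasts, 0 to 1 transcripts for glucose in knockout cells and 0 elsewhere, and 0 shares. As above, no single share could have passed on its own.

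Several estimates turned sign. The glucose median over all genes was itself -0.24 (control) and -0.33 (knockout) on log2(TPM + 1), -0.56 and -0.71 on log2(TPM + 0.1) and -0.35 and -0.47 with total counts alone. Calls over all genes then leaned to lower ones, 250 higher and 6725 lower in control cells and 345 and 8486 in knockout cells on log2(TPM + 1), 442 and 8460, and 656 and 11793, on log2(TPM + 0.1), and 782 and 4055, and 1482 and 6369, with total counts alone. For glucose in control cells, log2(TPM + 1) and log2(TPM + 0.1) gave *Mlx* -0.30 and -0.31, *Mlxip* -0.16 and -0.29, *Gpd1* -0.033 and -0.030, *Txn1* -0.083 and -0.084 and *Pkm* -0.17 and -0.17. For glucose in knockout cells they gave *Mlxipl* -0.54 and -0.55, *Mlx* -0.66 and -0.68, *Mlxip* -0.68 and -0.95, *Arrdc4* -0.20 and -0.21, *Pklr* -0.47 and -0.59, *Mxd4* -0.028 and -0.028, *Txn1* -0.30 and -0.31, *Pkm* -0.16 and -0.16, and Mlxipl-201 -0.65 with the first. For the knockout at 16.7 mM they gave *Mlxip* -0.16 and -0.21, *Txnip* -0.069 and -0.071 and *Arrdc4* -0.20 and -0.21. Total counts alone gave *Mlxipl* -0.076, *Mlx* -0.039, *Mlxip* -0.36, *Pklr* -0.087 and Mlxipl-201 -0.28 for glucose in knockout cells. Length-scaled TPM gave *Mlxip* -0.13 for glucose in knockout cells, *Pklr* 0.20 for glucose in control cells, and *Mlxip* -0.20, *Arrdc4* -0.12 and *Pklr* 0.062 for the knockout at 16.7 mM. Without the 3 samples apart, the interaction of *Mlx* was 0.034, *Txnip* -0.30 and *Arrdc4* -0.11 for the knockout at 16.7 mM, and *Pklr* -0.21 for glucose in knockout cells. The replicate block gave *Txnip* -0.26 and *Arrdc4* -0.091 for the knockout at 16.7 mM. It moved 4 calls of single genes or transcripts in edgeR, those of *Mlx*, *Txnip* and *Mlxipl* above and that of Mlxipl-207 (1.46, adjusted p = 0.057). Correlations of same-numbered samples were 0.07 to 0.19 within the knockout. Between genotypes they were 0.047, 0.24 and 0.12 at 2.8 mM and 0.084, 0.18, 0.047 and 0.35 at 16.7 mM. These values overlapped those of the control cells (0.12 to 0.26), so in no comparison was a shared number shown to be a pair.

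Leaving out 1 sample moved *Mlxipl* from -0.41 to 0.087 and *Pklr* from -0.23 to 0.034 for glucose in control cells, *Mlxip* from -0.030 to 0.39 and Mlxipl-205 from -0.41 to 0.10 for glucose in knockout cells, *Mlxip* from -0.047 to 0.21, *Txnip* from -0.24 to 0.31, *Arrdc4* from -0.089 to 0.097 and *Pklr* from -0.37 to 0.082 for the knockout at 16.7 mM, and the interaction of *Mlx* from -0.18 to 0.053. The cause of these changes was not tested. Over single genes and transcripts, 582 results under other settings and 590 with a sample left out kept direction and side of the threshold, 41 and 45 lost a call, 10 and 1 gained one, and 49 and 22 turned sign. With 3 control samples at 2.8 mM and spread as given, differences such as that of *Mlxipl* at 2.8 mM (95% interval -0.19 to 1.33) were not resolved.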
